A study of Mus musculus with 10 samples.

Results

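The hedgehog genes described here are the ligand *Ihh*, the receptors and membrane proteins *Ptch1*, *Smo*, *Hhip*, *Gas1* and *Cdon*, and the transcription factors *Gli1*, *Gli2* and *Gli3*. These 9 genes were taken by name, by a rule that uses no measured value, from 23080 genes listed for each library, and all 9 passed the filter on low counts. RNA-seq was performed on the anterior fontanelle (AF) region of mouse embryos at E18.5, cut out with its bone and suture tissue after skin and brain had been removed. The 5 control libraries (AF WT) carry the genotype label WT, and the study describes them as littermates. The 5 mutant libraries (AF NCC Fgfr2 KO) carry the label Wnt1-Cre; Fgfr2fl/fl. Wnt1-Cre drives Cre recombinase in neural crest cells (NCC), so *Fgfr2* alleles flanked by loxP sites are deleted in mesenchyme of neural crest origin and kept in other cells. The labels name no treatment. The comparison asks whether hedgehog transcripts differ in the AF region when FGFR2, a receptor for fibroblast growth factors, is deleted from its mesenchyme.

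Hedgehog proteins are secreted signals. Without ligand, Patched receptors hold the membrane protein Smoothened inactive, and GLI3 and GLI2 are processed to repressors. When ligand binds Patched, Smoothened acts at the primary cilium, full-length GLI proteins enter the nucleus, and *Ptch1*, *Gli1* and *Hhip* are transcribed, so the RNA of these 3 genes is widely used as a readout of the pathway. Indian hedgehog, encoded by *Ihh*, is made by maturing chondrocytes in the growth plate and by osteogenic cells at the edges of the skull bones, where it acts on osteoblast precursors.

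The libraries held 20774667 to 28515434 counts each, of which 1 ribosomal RNA gene, CT010467.1, took 18.6% to 33.5%. Values are given as CPM, counts scaled to a common library size after TMM normalization, and gene positions are on GRCm38. The label was checked first at the targeted gene. *Fgfr2* measured 199.5 ± 21.7 CPM (SD, n = 5) in AF WT and 318.5 ± 32.8 CPM (SD, n = 5) in AF NCC Fgfr2 KO libraries. Every mutant-labelled library was above every control-labelled one, a separation upwards that 0.781% of all genes tested showed. This direction goes against the label, although a count over the whole gene does not resolve the deleted exons and the annotated *Fgfr2* shares exon bases with *Ctbp2* on the same strand, so both groups are named by their labels, as control-labelled and mutant-labelled libraries. Mutant-labelled replicate 2 stood apart on the first principal component, which held 24.2% of the variance, with a score of 52.04 against −37.27 to 16.19 for the other 9 libraries. Its summed neuron and glia markers (6 genes, led by *Tubb3*) reached 397.8 CPM against 50.5 to 166.8 CPM elsewhere. Results that rest on it are given with and without it.

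The start regions of *Ihh*, *Ptch1* and *Hhip* are shown because these are the ligand and the readout genes whose levels the results turn on. RefSeq's promoter table, on build GRCm38.p6, held windows for 8 of the 9 genes, all but *Gli1*. Each window covers 250 bases before to 50 bases after an annotated start site. All 3 genes lie on the minus strand, and the windows are written 5′ to 3′ on that strand with each CpG dinucleotide in capitals. They cover chr1:74951623-74951922 for *Ihh*, chr13:63565686-63565985 for *Ptch1* and chr8:80057959-80058258 for *Hhip*.
Ihh: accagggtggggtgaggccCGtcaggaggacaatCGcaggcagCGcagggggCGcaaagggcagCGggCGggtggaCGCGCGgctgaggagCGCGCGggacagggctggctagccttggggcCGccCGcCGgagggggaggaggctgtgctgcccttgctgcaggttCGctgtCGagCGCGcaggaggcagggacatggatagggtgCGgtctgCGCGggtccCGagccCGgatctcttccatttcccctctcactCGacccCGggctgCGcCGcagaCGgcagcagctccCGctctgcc
Ptch1: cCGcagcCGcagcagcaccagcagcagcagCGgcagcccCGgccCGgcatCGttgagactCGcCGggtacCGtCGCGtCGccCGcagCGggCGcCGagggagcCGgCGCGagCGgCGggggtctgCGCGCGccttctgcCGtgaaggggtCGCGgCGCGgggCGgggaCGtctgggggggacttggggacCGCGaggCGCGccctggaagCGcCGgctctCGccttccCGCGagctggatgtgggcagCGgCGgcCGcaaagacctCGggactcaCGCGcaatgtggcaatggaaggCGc
Hhip: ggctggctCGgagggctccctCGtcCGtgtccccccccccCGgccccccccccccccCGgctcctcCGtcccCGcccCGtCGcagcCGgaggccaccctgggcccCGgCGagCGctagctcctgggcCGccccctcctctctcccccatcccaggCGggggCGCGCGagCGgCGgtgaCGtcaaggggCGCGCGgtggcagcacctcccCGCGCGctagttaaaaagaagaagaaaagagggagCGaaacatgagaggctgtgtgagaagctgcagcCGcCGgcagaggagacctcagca
The *Ihh* window held 30 CpG dinucleotides, the *Ptch1* window 47 and the *Hhip* window 30, against a median of 7 over the 32851 windows in the table. G and C made up 72.7% of the *Ihh* window, 76.3% of the *Ptch1* window and 73.7% of the *Hhip* window, against a median of 52.7%. The *Ptch1* start site used for its window lies 7863 bases inside the longest annotated *Ptch1* gene model, so the window belongs to a downstream start. The GLI consensus GACCACCCA, searched on both strands, was found in 0 of the 8 windows and in 83 of all 32851, or 0.253%. Of these 8, the windows of *Cdon* and *Gli3* also use start sites inside the annotated gene, by 30948 and 488 bases. The search covers only these letters in these 300 bases.

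The level of each gene in control-labelled libraries was compared per kilobase of annotated exon. The exons of all annotated transcripts of a gene were merged for this, so the length need not be that of the transcript expressed here. The co-receptor gene *Gas1* was highest at 38 ± 4.65 CPM per kb (SD, n = 5), and *Smo* followed at 19.9 ± 1.09 CPM per kb. *Cdon*, at 12 ± 1.34 CPM per kb, overlapped in range with *Gli1* at 10.4 ± 1.37, and *Gli1* with *Ptch1* at 8.66 ± 0.554 CPM per kb. *Gli2* came next at 6.72 ± 0.673 CPM per kb. *Hhip* at 3.83 ± 0.763, *Gli3* at 3.05 ± 0.242 and *Ihh* at 2.61 ± 0.488 CPM per kb closed the order and overlapped their neighbours among these 3. By this measure the ligand gene had the lowest mean of the 9 genes, within the spread of *Gli3*, while the genes of co-receptors and Smoothened had the highest means.

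In the comparison of the groups, the readout genes *Ptch1*, *Gli1* and *Hhip* were lower in mutant-labelled libraries, by 0.28 to 0.45 on the log2 scale, and the co-receptor gene *Cdon* was higher, by 0.27, each at an unadjusted p under 0.05 in edgeR's quasi-likelihood test. None of the 9 genes passed an adjusted p of 0.05 (Benjamini-Hochberg over 16267 genes), a threshold that 3 genes, or 0.0184% of those tested, passed. *Fgfr2* was 1 of these 3 (log2 fold change 0.67, edgeR adjusted p = 0.0487) and passed in 2 of the 10 fits that left out 1 library. The 3 lower genes of 9 stand beside 3.82% of all genes tested that were lower at an unadjusted p under 0.05, and the 1 higher gene beside 3.68% that were higher. The other 5 genes, *Ihh*, *Smo*, *Gli2*, *Gli3* and *Gas1*, did not pass that test in either direction. Scaled by library size only, *Cdon* (0.22) no longer had an unadjusted p under 0.05 and *Ihh* (−0.39) did. The median log2 fold change of the 9 genes was −0.07, beside 0.00 over all genes tested. Osteoblast markers were lower in the same libraries, and with their mean as a covariate in edgeR 0 of the 9 genes had an unadjusted p under 0.05, with log2 fold changes of −0.22 for *Ptch1*, −0.18 for *Gli1*, −0.32 for *Hhip* and 0.38 for *Cdon* and larger standard errors (0.128, 0.152, 0.242 and 0.189).

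**Figure D1:**
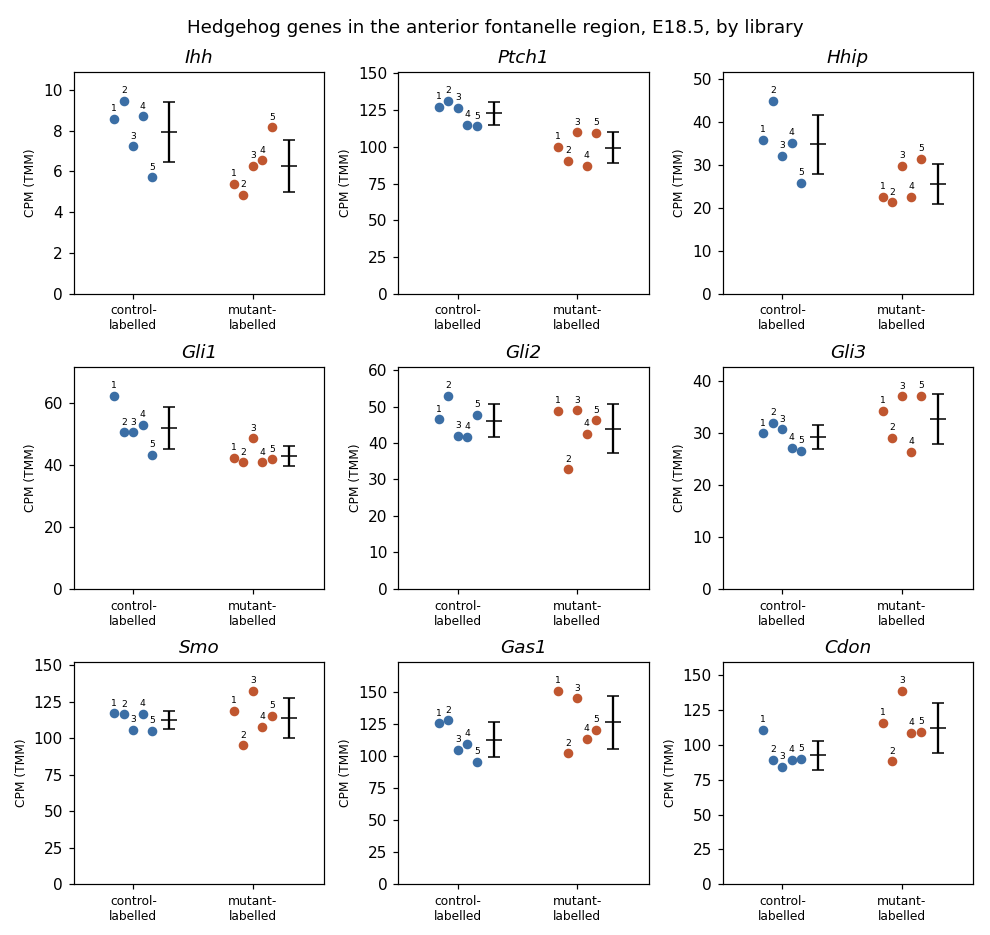
CPM of each of the 9 hedgehog genes (vertical axes, linear from 0) in the 5 control-labelled and 5 mutant-labelled libraries, 1 point per library with its replicate number, and the mean with SD beside each group. The groups are separate for Ptch1 (114.0 CPM at the lowest control-labelled and 109.9 at the highest mutant-labelled library) and overlap for the other 8 genes.

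*Ihh*, the ligand (ENSMUSG00000006538.12, chr1:74945315-74951672, minus strand), measured 8.6, 9.47, 7.23, 8.71 and 5.71 CPM in control-labelled replicates 1 to 5 and 5.39, 4.85, 6.29, 6.55 and 8.17 CPM in mutant-labelled replicates 1 to 5. The groups overlapped: 2 mutant-labelled libraries lay under every control-labelled one, and mutant-labelled replicate 5, the highest of its group, lay above 2 controls. The means were 7.94 ± 1.49 and 6.25 ± 1.27 CPM (SD, n = 5 each). The log2 fold change was −0.35 (SE 0.165, edgeR p = 0.0579, adjusted p = 0.664), and a two-sided exact permutation test over the 252 groupings of the libraries gave p = 0.0952. *Ihh* rested on 116 to 276 counts per library, the fewest of the 9 genes. Leaving out 1 library at a time moved the log2 fold change between −0.46 and −0.26, and the unadjusted p between 0.0149 and 0.15 (under 0.05 in 2 of 10 fits). In bulk tissue, fewer cells that make a transcript and less of it per cell cannot be told apart, here and in all results that follow.

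*Ptch1*, the receptor that hedgehog proteins bind (ENSMUSG00000021466.12, chr13:63508328-63573598, minus strand), measured 127.4, 131.3, 126.5, 114.9 and 114.0 CPM in control-labelled replicates 1 to 5. In mutant-labelled replicates 1 to 5 it measured 99.9, 90.4, 109.9, 87.2 and 109.6 CPM. Every mutant-labelled library was below every control-labelled one, a separation in this direction that 0.701% of all genes tested showed. The means were 122.8 ± 7.85 and 99.4 ± 10.5 CPM (SD, n = 5 each), a ratio of 0.809. The log2 fold change was −0.31 (SE 0.076, 95% interval −0.48 to −0.13), with an edgeR p of 0.00185 and an adjusted p of 0.336. Its exact permutation p was 0.00794, the smallest that 5 against 5 libraries can give. DESeq2's Wald test gave −0.30 with an adjusted p of 0.048, the only test run in which a hedgehog gene of the 9 passed the adjusted threshold. Without mutant-labelled replicate 2 the log2 fold change was −0.27 (edgeR adjusted p = 0.428).

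*Hhip* encodes a membrane protein that binds hedgehog ligands and keeps them from Patched (ENSMUSG00000064325.4, chr8:79965851-80058006, minus strand). It measured 35.8, 44.9, 32.1, 35.1 and 25.8 CPM in control-labelled replicates 1 to 5, and 22.5, 21.3, 29.8, 22.6 and 31.4 CPM in mutant-labelled replicates 1 to 5. The 3 lowest mutant-labelled libraries lay under every control, while replicates 3 and 5 overlapped with control-labelled replicate 5. The means were 34.7 ± 6.92 and 25.5 ± 4.71 CPM (SD, n = 5 each). This gave a log2 fold change of −0.45 (SE 0.150, edgeR p = 0.0119, adjusted p = 0.53, exact permutation p = 0.0476). This was the largest of the 9 log2 fold changes in size. Without mutant-labelled replicate 2 it was −0.38 (edgeR adjusted p = 0.65).

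*Gli1*, a GLI activator that is itself switched on by the pathway (ENSMUSG00000025407.7, chr10:127329882-127341974, minus strand), measured 62.4, 50.6, 50.6, 53.1 and 43.4 CPM in control-labelled replicates 1 to 5. Mutant-labelled replicates 1 to 5 measured 42.3, 40.9, 48.7, 40.9 and 41.9 CPM. All mutant-labelled libraries but replicate 3 lay under every control. The means were 52.0 ± 6.83 and 42.9 ± 3.26 CPM (SD, n = 5 each), and the log2 fold change was −0.28 (SE 0.088, edgeR p = 0.00889, adjusted p = 0.508, exact permutation p = 0.0159). Without mutant-labelled replicate 2 the log2 fold changes were −0.26 for *Gli1*, −0.26 for *Ihh*, 0.21 for *Gli3* and 0.09 for *Smo*. *Gli1* shares exon bases with *Arhgap9* and Gm47200 on the opposite strand, *Hhip* with Gm27820, *Gli3* with Gm6556 and *Gas1* with Gm48488. The sources name no strand setting for counting, so reads of these neighbours cannot be told apart from theirs. In all 10 fits that left out 1 library, *Ptch1*, *Gli1* and *Hhip* kept an edgeR p under 0.05, at most 0.00628, 0.0243 and 0.0372.

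*Gli2*, the main activator of the pathway (ENSMUSG00000048402.14, chr1:118834132-119053619, minus strand), measured 46.5, 52.9, 41.9, 41.7 and 47.8 CPM in control-labelled and 48.9, 32.8, 49.0, 42.6 and 46.2 CPM in mutant-labelled replicates 1 to 5. Mutant-labelled replicate 2 was the lowest of all and the other libraries of both groups lay together. *Gli2* had a log2 fold change of −0.07 (95% interval −0.32 to 0.18, edgeR adjusted p = 0.913, exact permutation p = 0.611), and it was 0.02 without that library.
*Gli3*, the main source of GLI repressor (ENSMUSG00000021318.15, chr13:15463235-15730026, plus strand), measured 29.9, 31.9, 30.7, 27.1 and 26.5 CPM in control-labelled and 34.2, 29.0, 37.0, 26.4 and 37.1 CPM in mutant-labelled replicates 1 to 5. Mutant-labelled replicates 1, 3 and 5 were above every control and replicate 4 was below every control. The log2 fold change was 0.16 (SE 0.099, edgeR p = 0.123, adjusted p = 0.726, exact permutation p = 0.206). An unadjusted p under 0.05 came without mutant-labelled replicate 4 (0.24) and with limma voom and quality weights (0.21).

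*Smo*, which encodes the Smoothened transducer (ENSMUSG00000001761.7, chr6:29735503-29761365, plus strand), averaged 112.0 ± 6.15 CPM (SD, n = 5) in the controls and 113.7 ± 13.8 CPM (SD, n = 5) in the mutant-labelled group. The control-labelled libraries, from 105.1 to 117.0 CPM, lay inside the range of the mutant-labelled ones, from 94.9 to 132.1 CPM. *Smo* had a log2 fold change of 0.02 with a 95% interval of −0.17 to 0.21 (edgeR adjusted p = 0.97, exact permutation p = 0.762), and its sign turned with the scaling.

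*Gas1* and *Cdon* encode co-receptors that bring hedgehog ligands to Patched. *Cdon* (ENSMUSG00000038119.15, chr9:35421128-35507652, plus strand) measured 110.7, 89.1, 84.3, 89.1 and 90.2 CPM in control-labelled and 115.8, 88.2, 138.7, 108.6 and 109.3 CPM in mutant-labelled replicates 1 to 5. Control-labelled replicate 1 and mutant-labelled replicate 2 each lay within the other group's range, and the remaining libraries were separate. The means were 92.7 ± 10.3 and 112.1 ± 18.1 CPM (SD, n = 5 each), and the fitted log2 fold change was 0.27 (SE 0.110, edgeR p = 0.0293, adjusted p = 0.634, exact permutation p = 0.103). The unadjusted p of the edgeR test was above 0.05 when mutant-labelled replicate 3, control-labelled replicate 3 or control-labelled replicate 4 was left out, and the log2 fold change was 0.36 (edgeR adjusted p = 0.368) without mutant-labelled replicate 2.
*Gas1* (ENSMUSG00000052957.8, chr13:60174405-60177365, minus strand) measured 125.4, 127.8, 104.6, 109.2 and 95.6 CPM in control-labelled and 150.5, 101.9, 145.0, 113.3 and 120.1 CPM in mutant-labelled replicates 1 to 5. Mutant-labelled replicates 1 and 3 were above every control and the rest overlapped. The log2 fold change was 0.16 (SE 0.116, edgeR p = 0.185, adjusted p = 0.776, exact permutation p = 0.27), and 0.24 without mutant-labelled replicate 2 (edgeR adjusted p = 0.729, with an unadjusted p under 0.05) and 0.10 without mutant-labelled replicate 1.

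**Figure D2:**
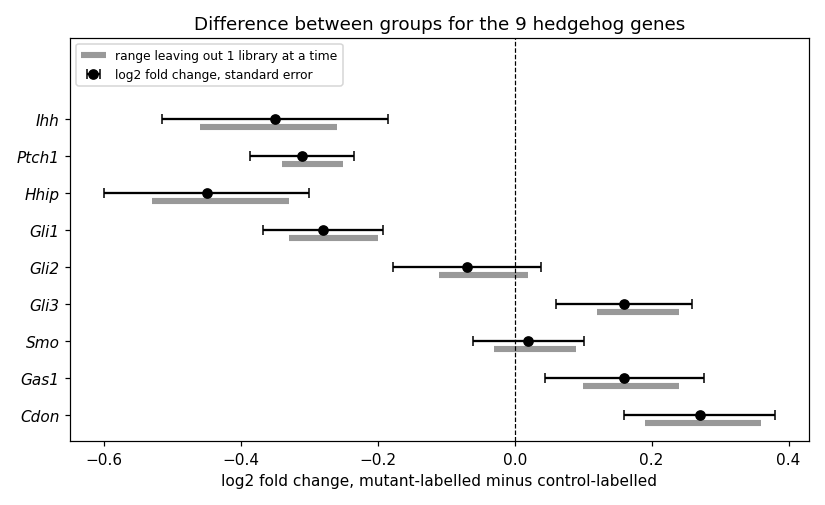
Log2 fold change (mutant-labelled minus control-labelled, horizontal axis) of each hedgehog gene with its standard error (black) and the range over the 10 fits that left out 1 library (grey). Ihh, Ptch1, Hhip and Gli1 stayed below 0 in all of these fits, Gli3, Gas1 and Cdon stayed above 0, and Gli2 and Smo reached both sides.

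Ratios of 2 transcripts within a library do not depend on the scaling between libraries. They were chosen after the values were seen and are given as a description. The log2 ratio of *Gli1* to *Gli3*, pathway-induced activator to repressor source, was 0.83 ± 0.18 in control-labelled (0.66 to 1.06) and 0.40 ± 0.18 in mutant-labelled libraries (0.17 to 0.63), with no overlap (SD, n = 5 each). *Gli1* over *Gli2* was 0.17 ± 0.25 and −0.02 ± 0.20, with overlap. *Ptch1* over *Smo* was 0.13 ± 0.10 and −0.19 ± 0.11, and *Ptch1* over *Gas1* was 0.13 ± 0.12 and −0.33 ± 0.19, both without overlap. *Hhip* over *Cdon* was −1.43 ± 0.31 and −2.14 ± 0.22, with overlap at −1.81 and −1.80. *Ptch1* over *Ihh*, readout to ligand, was 3.97 ± 0.25 and 4.01 ± 0.25, so this ratio lay in the same range in both groups. *Gli2* over *Gli3* was 0.66 ± 0.15 and 0.42 ± 0.20, with overlap.

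The readout genes were also set against the ligand library by library, over all 10 libraries on the log2 CPM scale, with permutation tests of 100000 resamples adjusted over the 10 relations computed. The libraries share their RNA, tissue make-up and scaling between both genes of a pair. *Hhip* followed *Ihh* with Pearson's r of 0.91 (permutation p = 5.00e-04, adjusted p = 0.0042) and Spearman's rho of 0.94 (permutation p = 3.00e-04, adjusted p = 0.003). Without the 2 libraries farthest from the median of *Ihh* (control-labelled and mutant-labelled replicate 2) r was 0.86, and after each group's mean was subtracted it was 0.88, so r was of like size with and without the difference between groups. *Gli1* followed *Ihh* less closely, with r of 0.67 (permutation p = 0.0348, adjusted p = 0.0436) and rho of 0.62 (permutation p = 0.0603, adjusted p = 0.0664), and r was 0.47 after group means were subtracted. In the mutant-labelled libraries other than replicate 3, *Gli1* stayed at 40.9 to 42.3 CPM while *Ihh* ranged from 4.85 to 8.17 CPM. *Gli1* and *Hhip* had r of 0.75 (permutation p = 0.0124, adjusted p = 0.0259) and rho of 0.81 (permutation p = 0.00715, adjusted p = 0.0119), with r of 0.80 without control-labelled replicates 1 and 4 and 0.52 after group means were subtracted. As the permutations ran over all 10 libraries, the p-values of these 3 relations also take in the difference between groups. The other 7 relations involve *Ptch1* or the osteoblast mean described further on, whose groups were separate, and no pooled r is given for them.

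**Figure D3:**
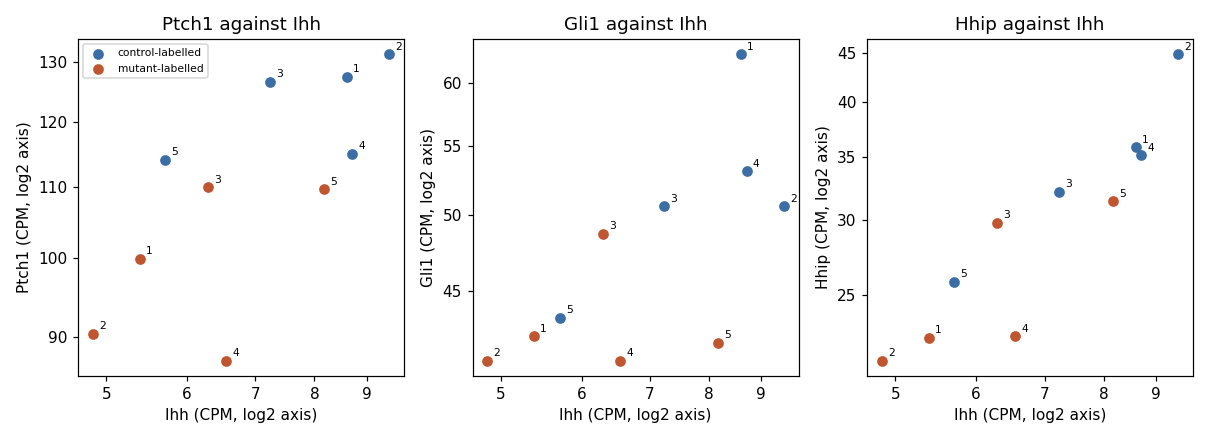
CPM of Ptch1, Gli1 and Hhip (vertical axes, log2 scale) against CPM of Ihh (horizontal axes, log2 scale) in the 10 libraries, 1 point per library with its replicate number. Hhip lies close to a line through both groups (r = 0.91), while the mutant-labelled libraries lie below all control-labelled ones in Ptch1 whatever their level of Ihh.

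The genes whose levels were most like those of a hedgehog gene were found among 11014 genes with a mean of at least 5 CPM, by Pearson's r over the 10 libraries after group means were subtracted, with no test. For *Ihh* these were *Saal1* (r = 0.938), *Gatd1* (0.929) and *Gart* (0.923), while *Hhip* came at place 35 (0.877), *Ptch1* at place 1388 (0.520) and *Gli1* at place 1768 (0.467). For *Hhip* they were *Rdm1* (0.972), *Nup205* (0.937) and *Bcl7c* (0.926), with *Ihh* at place 44 (0.877), *Ptch1* at place 254 (0.782) and *Gli1* at place 1677 (0.524). For *Gli1* they were *Slc49a4* (0.948), *Cdk7* (0.934) and *Adcyap1* (0.921). *Ptch1* was most like *Gli3* (0.983), ahead of *Atf7* (0.972) and *Syne3* (0.959), although *Ptch1* was lower and *Gli3* was not lower in mutant-labelled libraries by mean.

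Of 41 other genes of the pathway, 40 could be tested, all but *Shh*. Of these, 3 were higher and 3 lower at an unadjusted p under 0.05 in edgeR, 34 passed in neither direction, and the median log2 fold change was 0.03. Over all genes tested, 3.68% were higher and 3.82% lower at that level, and 0.0184% passed the adjusted threshold. Among 7 tested genes for making and releasing ligand, 2 were higher at that unadjusted level. *Scube2*, whose secreted product helps release lipid-modified hedgehog from cells, ranged from 6.13 to 9.19 CPM in controls and from 11.6 CPM (replicate 2) to 17.0 CPM in mutant-labelled libraries. It rose from 7.62 ± 1.18 to 15.3 ± 2.19 CPM (SD, n = 5 each; log2 fold change 1.01, SE 0.130, edgeR test past the adjusted threshold) and was the 1 pathway gene called and the 1 without overlap among those tested, a separation that 0.781% of all genes showed upwards. Its adjusted p was 0.0487 over all libraries, stayed under 0.05 without control-labelled replicate 2 or mutant-labelled replicate 2, and lay above 0.05, at up to 0.203, without each of the other 8 libraries. It was also above 0.05 in edgeR with library size only (0.115, log2 fold change 0.96) and with the replicate number as a block (0.427, log2 fold change 1.01). The same held with *Xist* as a covariate (0.0587, log2 fold change 0.99) and with the osteoblast mean as a covariate (1, log2 fold change 0.79). Leaving out libraries moved the log2 fold change of *Scube2* only between 0.94 and 1.10. Its relative *Scube3* measured 48.7 ± 7.08 and 59 ± 9.15 CPM (log2 fold change 0.27, edgeR adjusted p = 0.65, exact permutation p = 0.0873), and its unadjusted p in edgeR was above 0.05 in 5 of the 10 fits that left out 1 library. The dispatcher gene *Disp1* and the acyltransferase gene *Hhat*, which also serve ligand release, had log2 fold changes of 0.03 and 0.00.

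The other 2 ligand genes were near the limit of detection. *Shh* had 2, 3, 0, 0 and 1 counts in control-labelled and 15, 14, 8, 3 and 3 counts in mutant-labelled replicates 1 to 5, or 6 and 43 in all, too few to pass the filter. Its CPM groups did not overlap (0 to 0.103 and 0.128 to 0.697), beside 0.781% of all genes tested that separated upwards. But control-labelled replicate 2 and mutant-labelled replicates 4 and 5 had 3 counts each, so only the scaling between libraries sets them apart. *Shh* shares exon bases with 9530036O11Rik and Gm26894 on the opposite strand. Epidermis and hair follicle markers, the cells that make *Shh* in skin, summed to 6.83 to 14.9 CPM in controls and to 6.12 to 12 CPM in mutant-labelled libraries. Of these 8 marker genes, 6 passed the filter on low counts. Their part in the *Shh* counts was not tested. *Dhh* measured 1.28 ± 0.235 and 1.14 ± 0.702 CPM from 4 to 42 counts per library (log2 fold change −0.17, edgeR adjusted p = 0.955), its log2 fold change ran from −0.44 to 0.11 when libraries were left out in turn (above 0 without mutant-labelled replicate 5, which held the 4 counts), and *Rhebl1* and Gm49442 share exon bases with it.

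None of 4 further hedgehog-binding proteins passed an unadjusted p of 0.05 in edgeR, which 3.68% of all genes tested passed upwards and 3.82% downwards. The co-receptor gene *Boc* measured 65.4 and 69.1 CPM (log2 fold change 0.08), *Gpc3* 357.6 and 387.6 CPM (0.12), and *Lrp2* 1.53 and 0.775 CPM (−0.98, edgeR adjusted p = 0.701). *Lrp2* rested on 7 to 78 counts per library, and its log2 fold change was −0.48 without control-labelled replicate 3, while leaving out libraries moved *Boc* between 0.04 and 0.16 and *Gpc3* between 0.04 and 0.21. None of 10 genes that act on Smoothened at the cilium passed either, with log2 fold changes from −0.36 to 0.20 and a median of 0.01. Among 10 genes that act on GLI proteins, *Kif7*, a ciliary kinesin, was lower (18.9 ± 0.87 and 16.8 ± 1.69 CPM, log2 fold change −0.17, exact permutation p = 0.0317). *Spop*, an adaptor for GLI degradation, was also lower (69.8 ± 2.66 and 64.6 ± 3.2 CPM, −0.11, exact permutation p = 0.0238), and *Gsk3b*, a kinase that phosphorylates GLI proteins for processing, was higher (81.5 ± 4.1 and 91.6 ± 8.86 CPM, 0.17, exact permutation p = 0.0794). These 3 had adjusted p-values of 0.643 to 0.659 in edgeR, and each lost its unadjusted p under 0.05 in 5 or more of the 10 fits that left out 1 library. *Kif7* was at −0.11 without mutant-labelled replicate 2. *Sufu*, the main GLI inhibitor, had a log2 fold change of 0.05.

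Of 9 reported target genes, 1 was lower at an unadjusted p under 0.05, beside 3.82% of all genes tested. This was *Pthlh*, encoding the parathyroid hormone-related protein that hedgehog signaling induces in growth cartilage, with 2.61 ± 0.679 and 1.76 ± 0.303 CPM (SD, n = 5 each; log2 fold change −0.57, SE 0.208, edgeR adjusted p = 0.597, exact permutation p = 0.0397) from 33 to 102 counts per library. Its unadjusted p in edgeR was above 0.05 without control-labelled replicate 2. The cell cycle genes *Ccnd1* and *Ccnd2* had log2 fold changes of 0.22 and −0.04, the forkhead genes *Foxf1*, *Foxf2*, *Foxl1* and *Foxc2* had 0.39, 0.47, −0.13 and −0.24, *Mycn* had 0.74 and *Nr2f2* 0.05. Single libraries carried some of these: *Mycn* was at 0.23 without mutant-labelled replicate 2 (12.8 CPM in that library), *Ccnd1* at 0.03 without mutant-labelled replicate 3 (145.6 CPM), and *Foxl1* at 0.05 without control-labelled replicate 1.

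**Figure D4:**
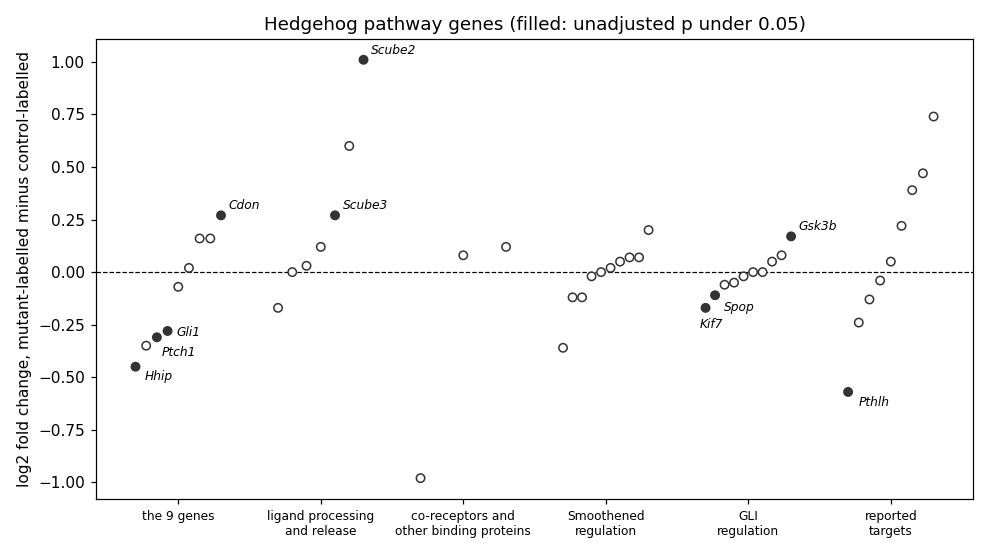
Log2 fold change (mutant-labelled minus control-labelled, vertical axis) of the 9 hedgehog genes and the tested pathway genes by role, less 1 gene that is not reported here, 1 point per gene, filled where the unadjusted edgeR p is under 0.05. The filled points below 0 are Hhip, Ptch1, Gli1, Kif7, Spop and Pthlh, and those above 0 are Cdon, Scube2, Scube3 and Gsk3b.

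Markers of the cells in the tissue moved with the groups too. Osteoblast markers were present in every library (15 genes tested, led by *Col1a1*). Of these 15, 10 were lower and 0 higher at an unadjusted p under 0.05 in edgeR, beside 3.82% and 3.68% of all genes tested. Their mean log2 CPM was 8.07 to 8.45 in control-labelled and 7.82 to 8.06 in mutant-labelled libraries, without overlap, while their summed CPM, which *Col1a1* dominates, overlapped at 66562 to 78199 and 54488 to 78889. With this mean as a covariate in edgeR, the log2 fold change of *Ihh* was −0.17, and over all genes tested 459 had an unadjusted p under 0.05 in place of 1219. As the covariate and the groups are separate in the same way, a lower share of osteoblasts and a lower level of the readout genes cannot be told apart.

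Among 12 tested chondrocyte markers, *Col2a1*, *Col9a2* and *Cnmd* were higher and *Col10a1*, the collagen of hypertrophic chondrocytes, was lower at an unadjusted p under 0.05 in edgeR. Over all genes tested, 3.68% were higher and 3.82% lower at that level. Chondrocyte markers (led by *Col11a2*) summed to 1402 to 1731 CPM in controls and to 1319 to 1721 CPM in mutant-labelled libraries. All 4 markers of AF connective tissue, *Scx*, *Tnmd*, *Mkx* and *Matn4*, were higher, and summed to 148.3 to 179.2 CPM in controls against 199.4 to 277.6 CPM in mutant-labelled libraries. Their part in the differences in *Ptch1*, *Gli1*, *Hhip* and *Cdon* was not tested. Skeletal muscle markers were high in 1 library of each group (at most 712.6 CPM among controls and 707.9 CPM among mutant-labelled libraries, led by *Acta1*). No gene of the muscle, neuron and glia, meninges, endothelium, erythroid, macrophage, osteoclast or epidermis lists had an unadjusted p under 0.05 in edgeR.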

How the data were processed

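RNA-seq was performed by the authors on total RNA of 5 AF WT and 5 AF NCC Fgfr2 KO samples (stranded kit, single-end reads). The deposited table holds estimated counts per gene, not scaled between libraries, of which 67.3% are whole numbers and no gene sums to under 10. The submitters' processing notes name Partek and mm10, while aligner, counter and strand setting are not given in the sources used here. Of 22533 symbols found in GENCODE M21 (GRCm38), which also gave exon lengths, 22296 had the same position.

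Estimated counts were rounded and tested in R 4.3.3 with edgeR 4.0.16 (expression filter, TMM, quasi-likelihood test without covariates, 16267 genes tested, 6813 left out), with Benjamini-Hochberg adjustment and a threshold of 0.05. TMM factors came to 0.90 to 1.132 and the biological coefficient of variation was 18.9%. Log2 CPM used a prior count of 0.5. Intervals are 95% intervals of the log2 fold change. Single values were compared by two-sided exact permutation tests over 252 groupings. The edgeR script was tested on simulated data. Alternatives used DESeq2 1.42.0, limma 3.58.1 with voom and quality weights, other scalings and filters, covariates (*Xist*, osteoblast mean), the replicate number as a block, and leaving out each library in turn. Fits without ribosomal RNA genes and *Lars2*, and the counts of hedgehog genes without mutant-labelled replicate 2, were added after seeing the data. Depth was 20774667 to 28515434 counts per library, and precision is lowest for genes with few counts.

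Groups come from the sample labels. The study describes littermate pairs, but no source used here ties libraries to a litter or to each other, so tests were unpaired, and p-values measure the spread between these samples, some of which may be technical. No 2 libraries of the same group agreed within sampling noise. The 9 genes, the pathway and marker lists and the naming rule were chosen with earlier results of these data known. The rule named all 9 genes, *Fgfr2*, the ligand genes, listed pathway genes at an unadjusted p under 0.05 or without overlap, and the most abundant gene of each marker list. Other pathway and marker genes were named after their values were seen. The values of 1 listed pathway gene are not reported here, and counts over the pathway lists include it.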

Additional observations from a re-analysis of the deposited data

Results flagged for a closer look

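In 3 of 36 groups examined over 18 genes, 1 library lay far from the other 4 of its group, with a gap above 0.71 of the group's range. Chance alone puts about 1 in 20 groups past this limit. *Gli1* in mutant-labelled replicate 3 was at 48.7 CPM, with the nearest library of the group at 42.3 CPM (gap 0.809 of the range). *Cdon* in control-labelled replicate 1 was at 110.7 CPM, with the nearest at 90.2 CPM (0.775). *Scube2* in mutant-labelled replicate 2, the library that stood apart on the first principal component, was at 11.6 CPM, with the nearest at 15.4 CPM (0.715). All 3 libraries lay towards the other group.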

How the results depend on the processing

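Over 20 alternatives, *Ihh*, *Ptch1*, *Gli1*, *Gli3*, *Hhip*, *Gas1* and *Cdon* kept their direction. *Gli2* turned to 0.02 without mutant-labelled replicate 2 (−0.11 to 0.02 leaving out each library), and *Smo* to −0.03 with library size only and to −0.03 without mutant-labelled replicate 3 (−0.03 to 0.09 leaving out each library). The scaling by library size only moved the median log2 fold change of all genes from 0.001 to −0.038. *Ptch1* passed the adjusted threshold with DESeq2 (−0.30), where 1 of the 9 genes was called, and in no other alternative. The number of genes called went from 3 to 97 (58 higher, 39 lower) with DESeq2, to 1 with *Xist* as a covariate, 1 with library size only, 0 with the osteoblast covariate in edgeR (459 at an unadjusted p under 0.05) and 1 to 6 when libraries were left out in turn (6 without mutant-labelled replicate 2). Pathway genes at an unadjusted p under 0.05 went from 6 to 1 with the osteoblast covariate and to 3 to 7 when libraries were left out. The cause of these shifts was not tested.

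With the replicate number as a replicate block, 1 gene was called and none of the 9 hedgehog genes, *Scube2* had an adjusted p of 0.427 in edgeR at a log2 fold change of 1.01, and *Ptch1*, *Gli1*, *Hhip* and *Cdon* kept an unadjusted p under 0.05. Libraries of the same number did not deviate together (r of −0.20, 0.14, −0.21, 0.03 and −0.14), and no control-labelled library correlated best with its own number, so the numbers were not taken as pairs.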
